A study of Drosophila melanogaster with 3 samples.

Results

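The ZAD zinc finger genes are a Drosophila family whose proteins carry an N-terminal zinc-finger-associated domain (ZAD) followed by C2H2 zinc fingers, and CG14710, the protein mapped in this study, is itself one of them. The family members were given as 43 names, which were looked up by symbol or synonym in the RefSeq annotation of the dm6 assembly and came to 40 genes of 13944 protein-coding genes. Of the names, 36 were found by symbol and 7 by synonym, and 3 of the synonyms (CG6808, CG7357 and CG8145) were second names of Zaf1, Odj and nom. The rule that picks the genes uses names and no binding value, although the list was drawn up with results of these data known. All 40 proteins had a hit to a ZAD profile at an E value of at most 1e-05, including CG17803, hang and mld, the 3 members that were not used to build the profile from the other 37.

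Binding was measured by chromatin immunoprecipitation and sequencing (ChIP-seq) with an antibody against GFP in 3 biological replicates of a single group. The embryos were 0 to 14 hours old, of both sexes pooled, and came from 1 transgenic line with GFP fused to the C-terminal end of CG14710. The sources used here do not say whether the line also kept an untagged copy of CG14710, and embryos without the tag were not analysed here. Whole embryos mix all cell types, so a peak in few cells and weak binding in many cannot be told apart. Each replicate list and the pooled list held 30000 peaks, and 9194 peaks passed the authors' filter on the irreproducible discovery rate (IDR), a measure of agreement between replicates. All 9194 are in the pooled list with the same signal. Each member peak had the same rank by signal in both lists, so down to rank 8759 no pooled peak was left out. A place in the IDR list is therefore read here as a high pooled signal, not as agreement of the replicates at that peak. Read depth is unknown, so the precision of single peaks can be judged only from the replicates.

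The ZAD folds around a zinc ion held by cysteines and lets these proteins pair with one another, while the C2H2 fingers contact DNA. The family has expanded in insects and many of its genes lie side by side as tandem copies. Some members are known as architectural or insulator proteins, such as pita, ZIPIC and dwg (Zw5), others act in the germ line, in ecdysone synthesis or in heterochromatin, and many carry only a CG number. The binding of one such protein near the genes of the others is described here as position and rank of peaks, without a measure of expression.

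A gene is called bound here where the summit of an IDR peak, the position the authors gave as its highest point, lay no more than 500 bp from an annotated transcription start site (TSS) of the gene. The 6 stretches below surround summits in the CG14710 cluster and, from elsewhere, those of trem and idc, M1BP, pad and hang, which are among the stronger bound members. They were taken from the RefSeq dm6 genome, lie outside annotated exons and are read 5′ to 3′ on the strand of the gene (for a peak of 2 members, on the plus strand). The summit is base 51 of each stretch of 101 bases, and capitals mark a match to one of the motifs searched.
CG14710, plus strand, chr3R:11619963-11620063: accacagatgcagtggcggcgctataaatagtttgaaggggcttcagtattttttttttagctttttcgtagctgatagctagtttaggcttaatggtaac
CG6813 and CG18764, plus strand, chr3R:11626743-11626843: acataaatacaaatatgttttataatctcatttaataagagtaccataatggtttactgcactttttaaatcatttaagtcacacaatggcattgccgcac
trem and idc, plus strand, chr3R:20031538-20031638: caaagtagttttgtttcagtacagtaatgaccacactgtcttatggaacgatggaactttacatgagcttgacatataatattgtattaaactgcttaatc
M1BP, minus strand, chr3R:8731824-8731924: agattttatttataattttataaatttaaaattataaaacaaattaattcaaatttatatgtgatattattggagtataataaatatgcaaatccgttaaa
pad, plus strand, chr3R:16342079-16342179: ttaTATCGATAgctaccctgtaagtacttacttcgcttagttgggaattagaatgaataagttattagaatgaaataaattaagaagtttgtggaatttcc
hang, plus strand, chrX:16422682-16422782: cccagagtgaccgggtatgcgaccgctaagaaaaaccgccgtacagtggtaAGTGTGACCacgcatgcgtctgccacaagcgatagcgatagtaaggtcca

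The summit shared by Zaf1 and CG14711, the highest signal among the 40 members, lies in an untranslated exon of Zaf1. No searched motif was found in the 29 bases around it.
Zaf1 and CG14711, plus strand, chr3R:11623196-11623224: attgcgtgactcaagcttaaatatttaat

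Of the 40 members, 26 were bound (65%, 95% Wilson interval 49.5% to 77.9%), against 5941 of 13944 protein-coding genes (42.6%). In the pooled list, 37 of 40 members (92.5%) had a summit at the promoter, against 7684 of all protein-coding genes (55.1%). The members therefore stood above the background share in both lists. Because the list was drawn up with results known, these shares are given as counts beside the background, with no test. The intervals cover counting error only, since neighbouring genes can share a peak.

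The same held in each replicate taken alone. Among the 9194 peaks with the highest signal of a replicate list, as many as the IDR list holds, summits lay at 24, 29 and 26 members in replicates 1, 2 and 3 (60%, 72.5% and 65%). For all protein-coding genes the shares were 41.9%, 43.3% and 41%. The mean over replicates was 65.8% ± 6.29 of members and 42% ± 1.18 of all genes (SD, n = 3), and the lowest share of members lay above the highest share of all genes. A summit among these strongest peaks of all 3 replicates was found at 21 members (52.5%), against 5010 of all protein-coding genes (35.9%). All 21 of these members were bound, which was close to given, since the IDR list was made from the same replicates. At 7 members (17.5%) no replicate had a summit among its strongest peaks, against 7305 of all genes (52.4%). These members were CG10654, CG17359, CG17803, CG17806, CG8159, ouib and ranshi.

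**Figure D1:**
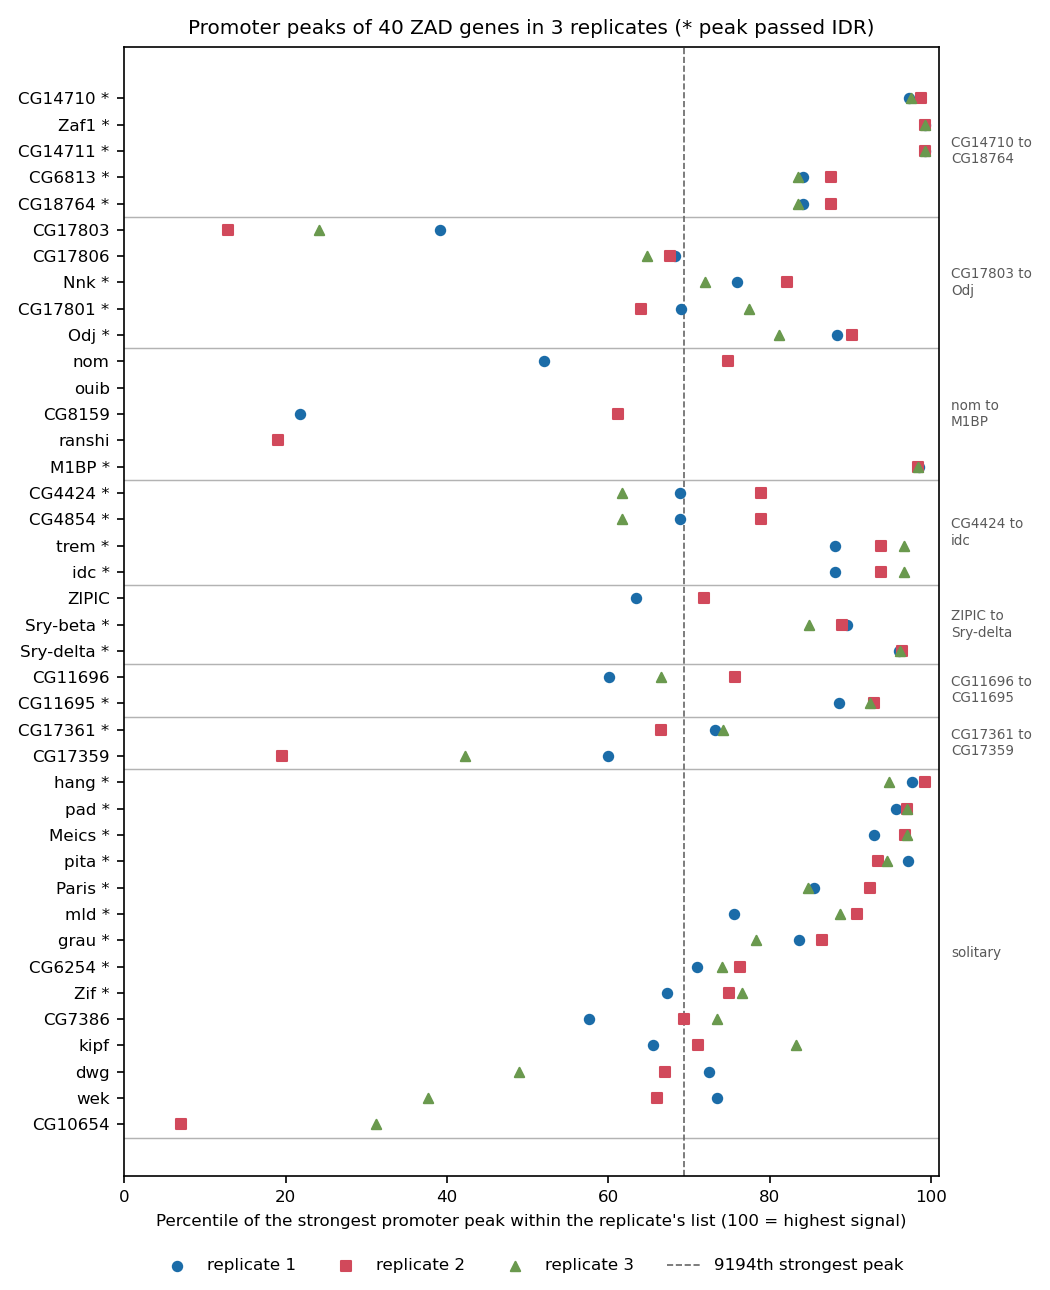
Percentile of the strongest peak at each member's promoter within each replicate list (x axis, 100 is the highest signal), by replicate and grouped by genomic cluster. The dashed line is the 9194th strongest peak, an asterisk marks a peak in the IDR list, a missing point means that no summit of that list lay within 500 bp of a TSS, and CG14710, Zaf1, CG14711 and M1BP sit above 97 in all 3 replicates.

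The peaks at bound members had a lower median signal than those at all bound genes. The authors' peak caller gave each peak a signal on a scale that is not stated, which serves here only to rank peaks within a list. In the IDR list, the 26 bound members had a median signal of 667 (range 279 to 3309), against 745 for the 5941 bound protein-coding genes. The median percentile in that list was 61.2 for bound members and 66.6 for all bound genes. Over the full replicate lists, the median percentile of members with a summit averaged 80.5 ± 3.93, against 85.4 ± 0.966 for all genes with one (SD, n = 3 replicates).

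Summits at bound members lay within 500 bp of a TSS by definition, so their positions are given beside those of all bound genes. The median position was -87 bp from the nearest TSS (range -386 to 237, negative meaning upstream), against -109 bp for all bound genes. At 23 of 26 bound members (88.5%) the summit was upstream, against 89.8% of all bound genes, and at 14 members (53.8%) it lay within 100 bp of the TSS, against 44.1%. Of the 22 separate peaks behind the 26 bound members, 16 summits were intergenic and 6 fell in an untranslated or non-coding exon. Between replicates, the 3 summits of a bound member spanned 3 to 3396 bp with a median of 29.5 bp, and 18 of 26 lay within 50 bp of each other. The widest span belonged to pita, which has TSSs far apart and had its strongest summit of replicate 3 at another of them than in replicates 1 and 2. Across the 22 peaks, the signals ranked alike in replicates 1 and 2 (Spearman's rho 0.924), in 1 and 3 (0.879) and in 2 and 3 (0.928). These values describe peaks that were selected from the same replicates, through the IDR list, and share 1 control file.

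**Figure D2:**
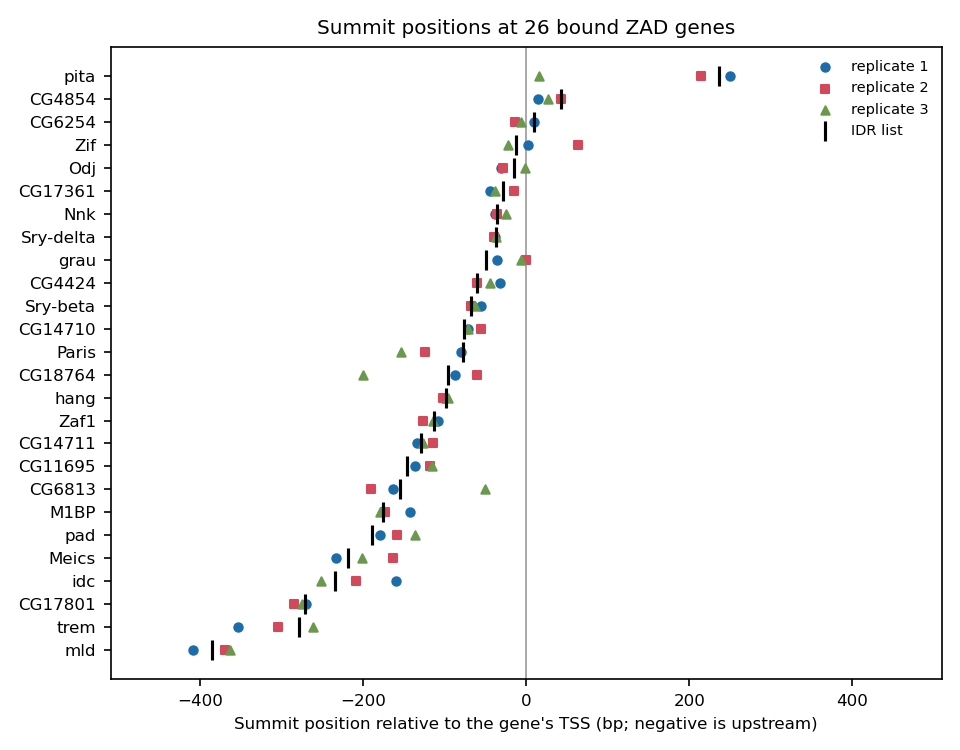
Position of the summit relative to the nearest TSS (x axis in bp, negative is upstream) at the 26 bound members in each replicate (symbols) and in the IDR list (black bars). Most summits lie just upstream, with mld farthest upstream at -386 bp and pita farthest downstream at 237 bp in the IDR list.

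By distance between TSSs, 26 members lay within 20 kb of another member and formed 7 clusters, and 14 were solitary. Of the clustered members 17 of 26 were bound (65.4%, 95% Wilson interval 46.2% to 80.6%), and of the solitary members 9 of 14 (64.3%, 38.8% to 83.7%). The share over all protein-coding genes was 42.6%. In the strongest peaks of the replicates, clustered members were found 14, 18 and 15 times (60.3% ± 8.01) and solitary members 10, 11 and 11 times (76.2% ± 4.12, SD, n = 3). For all protein-coding genes that share was 42% ± 1.18. The shares in the IDR list differed by less than their intervals, which are too wide to call them equal. Among the clusters, all members were bound in that of CG14710 (5 of 5, 56.6% to 100%) and that of CG4424 to idc (4 of 4, 51% to 100%). In that of nom to M1BP 1 of 5 was bound (3.62% to 62.4%). These intervals are wide and overlap, and neighbours that share a peak are not separate counts.

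The CG14710 cluster spans 8.36 kb of chromosome 3R (11620090 to 11628452) and holds CG14710, Zaf1, CG14711, CG6813 and CG18764, with no other protein-coding gene inside. All 5 members were bound, on 3 peaks. A summit in the IDR list lay at -77 bp from the TSS of CG14710 itself, on the stretch printed above, with a signal of 1804 and rank 627 of 9194. At this site the signal was 567 in replicate 1, 543 in replicate 2 and 706 in replicate 3, at percentiles 97.3, 98.8 and 97.5 of the replicate lists. The same peak lay within 500 bp of a TSS of Jupiter, a gene for a microtubule-associated protein, so it cannot be assigned to CG14710 alone.

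Zaf1 has 2 annotated TSSs, of which 1 lies 242 bp from the TSS of CG14711 and is transcribed away from it, and 1 peak lay between them. The other Zaf1 TSS, at 11625644, had no IDR summit within 500 bp. The peak between Zaf1 and CG14711 had a signal of 3309 in the IDR list, rank 202, and of 1164, 770 and 1378 in replicates 1, 2 and 3, at percentile 99.3 in each. This was the strongest peak of any member. CG6813 and CG18764, whose TSSs are 251 bp apart, shared a weaker peak with a signal of 568 in the IDR list. In the replicates it had 196, 169 and 204, at percentiles 84.2, 87.6 and 83.5. A further IDR summit lay at CG14712, just past the end of the cluster, with a signal of 2286. With that peak the cluster and 500 bp on each side held 4 IDR summits, or 4.27 per 10 kb, against 0.687 per 10 kb over the chromosome arms. All 7 clusters lay above that value, at 1.05 to 4.41 per 10 kb, and the highest was that of CG17803 to Odj. The clusters were picked for TSSs that lie close together, while the arms include stretches with few genes. No stretches of like gene density were compared, so the difference cannot be read as a trait of the family.

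**Figure D3:**
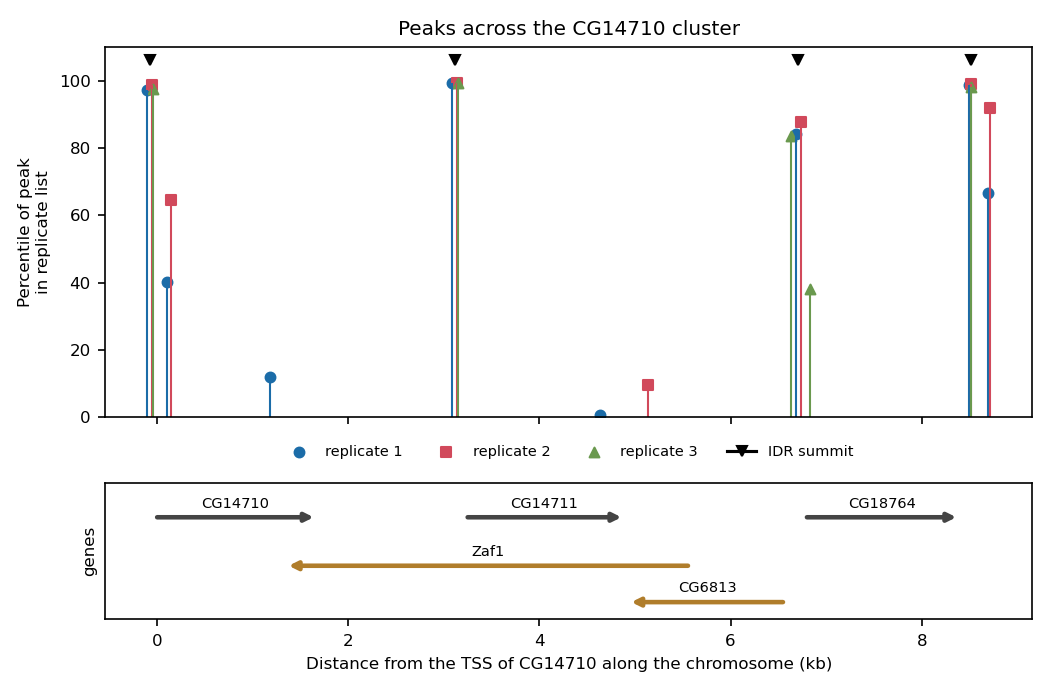
Peaks across the CG14710 cluster by distance from the TSS of CG14710 (x axis in kb), with the percentile of each peak in its replicate list (y axis) by replicate, triangles at the top for IDR summits and the 5 member genes below with their direction. The 4 IDR summits lie at promoters, and the 3 peaks far from any IDR summit, in replicates 1 and 2, have percentiles of 12 or lower, though the 1 in replicate 2 lies within 500 bp of the other TSS of Zaf1.

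In the cluster of CG4424, CG4854, trem and idc on 3R (20026487 to 20034330), all 4 members were bound, on 2 peaks. The summit between trem, needed for meiotic double-strand breaks, and idc, whose TSSs are 514 bp apart, had a signal of 1122 in the IDR list. In replicates 1, 2 and 3 it had 242, 256 and 609, at percentiles 88.1, 93.8 and 96.7. The summit at CG4424 and CG4854, whose TSSs are 18 bp apart, had 102, 107 and 75.4. With 279 in the IDR list this was the lowest signal of any bound member, above the list's minimum of 263.

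The cluster of CG17803, CG17806, Nnk, CG17801 and Odj on 3R (17798877 to 17809222) held 5 IDR summits, 3 of them at member promoters. Odj (Oddjob), a heterochromatin protein, had a signal of 645 in the IDR list and 246, 199 and 180 in replicates 1, 2 and 3. Nnk (Nicknack), an essential member also found at heterochromatin, had 397 in the IDR list and 134, 126 and 115 in the replicates. CG17801 had 317 in the IDR list and 102, 59.8 and 149 in the replicates, from a summit at -272 bp. CG17806 just missed the IDR list with a pooled signal of 257, and CG17803, with 43.5, 18.8 and 31.2, stood among the weaker peaks of all 3 replicates.

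The least bound cluster was that of nom, ouib, CG8159, ranshi and M1BP on 3R (8723174 to 8731698), where only M1BP was bound. M1BP, which binds core promoter motif 1 and acts in polymerase pausing, had a signal of 2115 in the IDR list, rank 447, and 749, 487 and 895 in replicates 1, 2 and 3. Its peak also lay at a TSS of CG8202. The neighbouring paralogs had 59.3 and 89.8 (nom) and 31.7 and 54.6 (CG8159) in replicates 1 and 2, and ranshi had 20.9 in replicate 2, with no promoter summit of these genes in the other replicate lists. At ouib, an activator of an ecdysone synthesis gene in the prothoracic gland, no list had a summit, which in lists of 30000 peaks says only that none ranked high enough. The bases between the end of nom and the TSS of ouib are shown as the promoter without a peak.
ouib, plus strand, chr3R:8725358-8725478: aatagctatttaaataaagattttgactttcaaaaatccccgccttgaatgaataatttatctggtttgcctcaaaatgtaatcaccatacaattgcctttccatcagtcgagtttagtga

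In the cluster of ZIPIC, Sry-beta and Sry-delta on 3R (30035240 to 30044886), both serendipity genes were bound. Sry-delta, an activator of bicoid in the germ line, had a signal of 1352 in the IDR list and 465, 333 and 562 in replicates 1, 2 and 3. It was the strongest bound member that had its peak to itself. Sry-beta had 677 in the IDR list and 266, 183 and 221 in the replicates, with Sry-alpha and janA at the same peak. ZIPIC, a partner of the architectural protein CP190, had a pooled signal of 98.7, with 84.4 and 79.4 in replicates 1 and 2 and no promoter summit in replicate 3.

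The pairs on the other arms were each bound at 1 of 2 members. On X, CG11695 had a signal of 854 in the IDR list and 250, 240 and 374 in replicates 1, 2 and 3, with e(y)2 at the same peak, and CG11696 had 75.4, 93.7 and 91.6 and did not enter the IDR list. On 3L, CG17361 had 318 in the IDR list and 121, 65 and 128 in the replicates, and CG17359 had 75.2, 21 and 42.5 and did not enter it. In both pairs the bound gene had the higher signal in every replicate. This was close to given, since the IDR list was made from the same replicates.

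Among the solitary members, the 4 with the highest pooled signal were hang, pad, Meics and pita, and each shared its peak with another gene. hang, required for ethanol tolerance, had a signal of 1811 in the IDR list and 607, 744 and 474 in replicates 1, 2 and 3, with AnxB11 at the same peak. pad (poils au dos), a repressor of proneural genes, had 1456 in the IDR list and 444, 361 and 648 in the replicates, beside SF2. Meics, a protein of the meiotic central spindle, had 1344 in the IDR list and 336, 350 and 656 in the replicates, beside Nxf3 and ssp2. pita, a boundary protein of the bithorax complex, had 1098 in the IDR list and 553, 250 and 466 in the replicates, beside Dcp-1. The replicates did not order these 4 alike, so their order in the pooled list lies within the spread between replicates.

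The other bound solitary members had lower signals in the IDR list, 658 at Paris, 635 at mld (an ecdysone synthesis regulator), 496 at grau (an activator in female meiosis), 334 at CG6254 and 293 at Zif. Among the solitary members not bound, kipf, which recruits Rhino to piRNA clusters, had 90.2, 77.2 and 202 in replicates 1, 2 and 3, and its pooled signal of 229 lay below the IDR minimum. CG7386 had 69.6, 72.1 and 124. dwg had 117, 66.1 and 49.7, and wek, a component of Toll signalling, had 122, 64.1 and 38.7. CG10654 had 17.2 in replicate 2 and 34.6 in replicate 3, and no promoter summit in replicate 1 or the pooled list.

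Across the family, 11 members had a pooled but no IDR summit. Pooled and IDR summits lay at 37 and 26 of 40 members, against 7684 and 5941 of 13944 protein-coding genes. The members just inside the IDR list were CG4424 and CG4854 at 279 and Zif at 293. Just outside were CG17806 at 257, CG11696 at 249, CG7386 at 248, kipf at 229, dwg at 227 and wek at 224, followed by nom at 182, CG8159 at 132, CG17359 at 129, ZIPIC at 98.7 and CG17803 at 97.3. No gap separates the first of these from the last bound members, so the line between bound and not bound is the authors' threshold. Within the full replicate lists, 34 members had a summit in all 3, a number that was not counted for all genes. Taken singly, the lists of replicates 1, 2 and 3 had one at 37, 39 and 35 of 40 members. For all protein-coding genes these numbers were 7722, 7715 and 7671 of 13944.

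Most bound members lay beside another promoter, as did most bound genes. Another TSS lay within 1000 bp of 20 of the 26 bound members and of 3916 of the 5941 bound protein-coding genes. Only 6 of the 26 bound members were alone at their peak, while 8 shared 4 peaks with another member and 12 shared one with a protein-coding gene outside the set. Shared peaks are common over all genes too, since the 5941 bound genes lay at 4211 IDR peaks. With the TSS of another protein-coding gene within 1000 bp, a division chosen after the data were seen, 20 of 23 members were bound (87%, 67.9% to 95.5%), against 3916 of 5962 protein-coding genes so placed (65.7%). Without one, 6 of 17 members were bound (35.3%, 17.3% to 58.7%), against 2025 of 7982 genes (25.4%). Near another TSS 12 of 13 clustered and 8 of 10 solitary members were bound, and away from one 5 of 13 and 1 of 4. Which of 2 adjoining genes a peak belongs to cannot be told apart from these lists, and the part of promoter arrangement in the share of bound members was not tested.

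**Figure D4:**
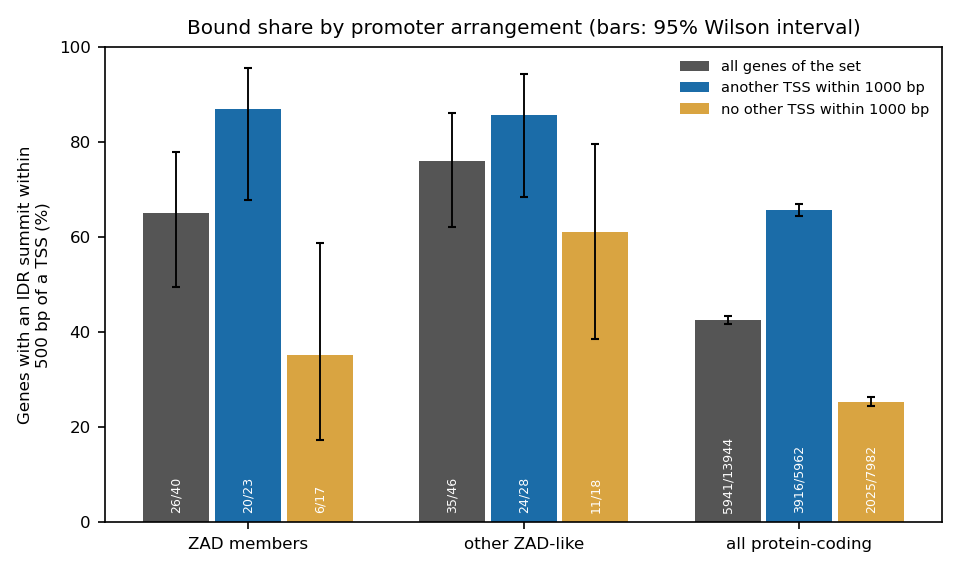
Share of bound genes (y axis in %) for ZAD members, other ZAD-like genes and all protein-coding genes, split by whether another protein-coding TSS lies within 1000 bp, with 95% Wilson intervals as bars and counts inside. In each set the share is higher with a near TSS, 87% against 35.3% for members and 65.7% against 25.4% for all protein-coding genes.

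Beyond the named members, the profile search found 46 other ZAD-like genes in the annotated proteins, of which 35 were bound (76.1%, 62.1% to 86.1%), against 42.6% of all protein-coding genes. They were taken by the ZAD hit alone, and GATAd, dbr, CG31109 and CG31457 among them had no match to the C2H2 pattern. In the strongest peaks of replicates 1, 2 and 3, summits lay at 34, 39 and 36 of the 46 genes, against 41.9%, 43.3% and 41% of all protein-coding genes. Away from another TSS 11 of 18 were bound (61.1%), and near one 24 of 28 (85.7%). Members and other ZAD-like genes together came to 61 of 86 bound (70.9%). The median signal of the 35 in the IDR list was 871, above the 745 of all bound genes, while that of bound members was 667. Of 152 genes with 3 or more C2H2 fingers but no ZAD hit, 83 were bound (54.6%, 46.7% to 62.3%). The interval around the members' 65% holds the shares of both sets. These 83 genes had a median signal of 674, so a median below that of all bound genes was not particular to the members. The differences between these medians were not tested. The highest pooled signals among the other ZAD-like genes were 55810 at CG15435, rank 4 of the list and shared with mRpL27, 19187 at CG31441, 3251 at CG10147 and 2669 at CG1792, and the first 2 exceed every member.

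Protein features of the members are given as a description. CG14710 has 415 residues and 5 matches to the C2H2 pattern, the count found in 20 of the 40 members. Bound members had a median of 5 matches, with 15 of 26 at that count, and members not bound a median of 6, with 5 of 14 at 5. Protein length had a median of 424 residues (210 to 2223) in bound members and 428 (312 to 664) in members not bound. In global alignments, the other 4 proteins of its cluster were 33.6% to 37.1% identical to CG14710 over aligned residues (median 34.3%), and the 35 members elsewhere 26.3% to 39.5% (median 32.1%). Of those elsewhere, the 21 bound members had a median of 32.2% and the 14 not bound 31.8%. The highest values were those of mld at 39.5%, CG4424 at 39% and ouib at 39%, of which ouib had no promoter peak. Identity over aligned residues leaves out unaligned parts, which are most of mld with its 1965 residues. These values therefore do not show which member is the closest relative of CG14710.

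Motifs of promoter and insulator factors were present at a minority of the summits. They were searched on both strands within 50 bp of the 22 summits of bound members and of all 4211 IDR peaks at protein-coding promoters, and at least 1 of the 5 was found at 8 member peaks (36.4%), against 18% of all. CAGGGCTG, bound by the member ZIPIC, lay at 3 member peaks (13.6%), against 1.99%. GGTCACACT, core promoter motif 1, bound by the member M1BP, lay at 3 (13.6%), against 4.35%, among them hang, where the match begins 1 base past the summit. TATCGATA, the site of DREF, lay at 2 (9.09%), against 8.22%, which were pad and Odj, and GGTATTTT, core promoter motif 6, at 2 (9.09%), against 4.27%. GAGAGAG, the site of GAF, lay at none of 22, which allows a share of up to 13.6%, against 0.594%. With 22 peaks, 1 peak more or less moves each of these shares widely. No motif contains another, but at CG6254 the motif 6 match shares 1 base with a ZIPIC match. The median G+C content within the windows was 33.7% at member peaks and 33.7% at all.

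The ZIPIC matches are shown as the sites where the letters of 1 member's motif lie under the peak at another member's promoter, with capitals for the match. The Sry-delta site lies outside annotated exons, the Zif site in exons of Zif, and the CG6254 site mostly in the first exon of CG6254. The CG6254 site also holds core promoter motif 6 between 2 ZIPIC matches in opposite orientation.
CG6254, minus strand, chr3R:10161306-10161335: CAGCCCTGGTATTTTtgcaaggCAGGGCTG
Sry-delta, plus strand, chr3R:30043308-30043335: catcgttcgcCAGCCCTGgtgggcatta
Zif, plus strand, chr3R:6457139-6457166: cgatgctatgCAGCCCTGgtaaggaaaa

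In promoter windows of 250 bp before to 50 bp after the TSS, counted over all 40 members whether bound or not, DREF letters lay at 7 (17.5%), against 10.2% of all 13944 genes. Motif 6 letters lay at 5 (12.5%), against 6.26%, ZIPIC letters at 4 (10%), against 2.61%, and motif 1 letters at 4 (10%), against 6.78%. GAF letters lay at 3 (7.5%), against 9.07%. A match to these letters is a description of the sequence, and no binding by these factors was measured here.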

How the data were processed

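Peak lists in narrowPeak format were used as deposited, 1 per replicate, 1 pooled and 1 filtered on IDR. Per the text files deposited beside them, the authors derived a replicate's list from its own dm6 alignments with 1 common control file, and the IDR list from the replicate and pooled lists together. No aligner, peak caller, software version or IDR threshold is given in the sources used here. Peak signal was deposited by the authors on a scale that is not stated, and was used only to rank peaks within a list. The authors deposited q values as −log10, which were not used. Interval and summit positions, deposited by the authors, were counted from 0 and are printed from 1. Chromatin fragments were 200 to 800 bp, per the labels. All 3 replicates form 1 group.

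TSSs came from the RefSeq annotation of Release 6 of the genome, the assembly also called dm6. Its 17796 genes had 23623 TSSs. The members and lists were chosen with earlier results of these data known, so counts are set beside all protein-coding genes without a test. Values are given in full for clustered members, the 4 solitary members with the highest pooled signal and members near the IDR threshold. The longest coding sequence of each gene was translated, and ZAD-like proteins were found at an E value of at most 1e-05 with a profile of the members' domains (MAFFT 7.526, HMMER 3.4). Other C2H2 genes had at least 3 matches to C-x-C-x-H-x-H spacing and no hit at 1e-02. The assignment of peaks to promoters was tested on simulated data. Alternatives were other windows, thresholds and lists and each replicate left out in turn. Added after seeing the data were the division by near TSSs, members outside the CG14710 cluster and each peak counted once. Intervals are 95% Wilson intervals. Analyses used Python 3.11.15, numpy 2.4.6, pandas 2.3.3, scipy 1.17.1, Biopython 1.88 and matplotlib 3.10.9.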

Additional observations from a re-analysis of the deposited data

How the results depend on the processing

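Of 71 alternatives tried over the counts and medians above, 67 stayed within 1.5 times the main count or within 1 SD. That rule compares counts even where the number of genes or peaks differs, so the tally does not measure how stable the shares are. The pooled list stayed, although members with a promoter summit went from 65% to 92.5%. Members with a near TSS stayed at 87%. An E value of at most 1e-10 moved, although the share of ZAD-like genes bound was 83.3%, against 76.1% in the main setting. Fewer peaks can only lower a count. The 4 that moved were 6 bound members without a near TSS (chosen after seeing the data), 20 bound ZAD-like genes of 24 at an E value of at most 1e-10, a mean of 16.3 members with 50% as many peaks per replicate (40.8% of members, against 28.6% of all genes), and 4 member peaks with a motif within 25 bp of the summit (18.2%, against 9.45% of all promoter peaks). Within 100 bp these shares were 40.9% and 30.8%, and DREF letters lay at 9.09% of member peaks, against 13.6% of all, the opposite order to that within 50 bp. The bound members numbered 24 with promoters of 250 bp and 28 with 1000 bp, against 37.3% and 46.1% of all genes. With each replicate left out in turn they numbered 21 to 22 (52.5% to 55%), of which 13 to 14 were clustered, against 36% to 38.4% of all genes. The IDR list was not remade for this, so the replicate left out still shaped these counts. Outside the CG14710 cluster, an alternative chosen after seeing the data, 21 of 35 members were bound (60%). No paired analysis was possible because the study has 1 group. Depth is unknown, and a promoter without a summit is not shown to be unbound.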

Other observations

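In the gene body of Zaf1, no IDR summit lay other than the one at the shared promoter. Of the 46 ZAD-like genes outside the named members, 6 had no pooled summit at the promoter, which were CG10669, CG11902, CG12391, CG13123, CG15073 and Neu2. CG10669 and CG11902 are divergent neighbours and neither had a promoter summit in any of the lists. Of the 14 solitary members, 3 had one of these other ZAD-like genes within 20 kb, so that solitary holds only among the named members.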
